A study of Mus musculus with 61 samples.

Results

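The Apoe gene cluster of mouse chromosome 7 holds Apoe, Apoc1, Apoc4 and Apoc2, which lie in that order on the minus strand. Its H3K27ac was followed in microglia with and without the super-enhancer of Sall1. Members were chosen by name: 18 of the 133129 windows in the deposited microglial table had Apoe, Apoc1 or Apoc2 as their nearest gene, 8, 7 and 3 windows respectively, and no window was annotated to Apoc4. Reproducible SALL1, SMAD4 and p300 peaks and called H3K27ac regions of sorted nuclei were added where they overlapped by at least 1 bp these windows or the mm10 gene bodies with 5 kb on either side. In GENCODE vM21 coordinates of mm10, Apoe spans chr7:19696109-19699188, Apoc1 chr7:19689481-19692660, Apoc4 chr7:19678083-19681479 and Apoc2 chr7:19671579-19677941. Their flanked bodies joined into a single interval of 37610 bp, chr7:19666579-19704188, referred to as the cluster below.

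The series compared C57/Bl6 wild-type (WT) mice with mice that lack the microglial super-enhancer of Sall1, the Sall1 Enhancer Knockout (EKO). EKO animals were homozygous for a CRISPR deletion made in zygotes and crossed to C57BL/6J, and, per the methods of the study, both groups were males between 8 and 12 weeks of age. H3K27ac ChIP-seq came from sorted whole microglia (labelled CD45+ CD11b+ CX3CR1+, with the gate set on low CD45 per the protocol; 2 WT and 2 EKO libraries) and from PU1+, Olig2+ and NeuN+ brain nuclei (2 WT and 2 EKO libraries each). SALL1 peak lists came from WT, EKO, PWK and Spret microglia (2 libraries each), p300 peaks from WT microglia and PU1+ nuclei (3 libraries), and SMAD4 peaks from 2 WT libraries and from 2 libraries labelled SMAD4-conditional KO. The labels of the whole microglia were followed, although a passage of the study describes its microglial H3K27ac as measured in PU.1+ nuclei. The age of the PWK and Spret mice is not given in the sources used here. The labels of the last SMAD4 group conflict, since the genotype field gives a SMAD4 deletion whereas the description, the titles of the matching inputs and the study's text name EKO microglia, so it is called the SMAD4 list labelled conditional KO throughout. No label states that replicates came from separate animals, and p-values therefore measure the spread between these libraries.

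Apolipoproteins are the protein part of lipoprotein particles. ApoE is the main lipid carrier of the brain, is made chiefly by astrocytes, and is a ligand of the LDL receptor family, whereas ApoC1, ApoC2 and ApoC4 are small exchangeable apolipoproteins, of which ApoC2 is the cofactor of lipoprotein lipase. Homeostatic microglia express Apoe below the level of astrocytes, and its transcript is a known marker of activated and disease-associated microglia; in macrophages the cluster is transcribed under the oxysterol receptors LXR. H3K27ac, acetylation of lysine 27 on histone H3, marks active promoters and enhancers. SALL1 is a zinc-finger protein that in the brain's myeloid cells is largely restricted to microglia, SMAD4 is the shared partner of the SMAD proteins that act in TGF-beta signalling, and p300 is an acetyltransferase that deposits H3K27ac.

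The stretches of sequence that follow carry the peaks and the start site described below. They are shown on the build GRCm38.p6 (mm10), 5′ to 3′, from RefSeq. Capitals mark, on either strand, matches to the SMAD box CAGAC, the PU.1-type ETS element AGGAAG, the AP-1 site TGANTCA, the C/EBP site TTGCNNAA and the nuclear receptor half-site AGGTCA. The element between Apoc2 and Clptm1 is the WT SALL1 peak at chr7:19667580-19667795 on the plus strand, shown because SALL1, SMAD4 and p300 peaks coincided there. The element upstream of Apoe is the WT SALL1 peak at chr7:19699670-19699909 on the plus strand, which a p300 peak overlapped. The element between Apoc4 and Apoc1 is the central 300 bases, chr7:19683840-19684139 on the plus strand, of the peak in the SMAD4 list labelled conditional KO. The Apoe promoter is the 250 bases upstream of its start, chr7:19699189-19699438, on the minus strand.
Element between Apoc2 and Clptm1: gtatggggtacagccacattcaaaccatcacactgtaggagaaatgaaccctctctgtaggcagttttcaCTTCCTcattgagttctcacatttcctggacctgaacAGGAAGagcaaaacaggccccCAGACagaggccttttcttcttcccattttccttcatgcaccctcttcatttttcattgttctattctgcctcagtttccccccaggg
Element upstream of Apoe: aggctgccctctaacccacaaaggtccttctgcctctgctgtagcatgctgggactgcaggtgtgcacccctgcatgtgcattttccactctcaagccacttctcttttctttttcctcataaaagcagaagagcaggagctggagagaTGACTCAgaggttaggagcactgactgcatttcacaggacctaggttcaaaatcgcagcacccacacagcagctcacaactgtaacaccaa
Element between Apoc4 and Apoc1: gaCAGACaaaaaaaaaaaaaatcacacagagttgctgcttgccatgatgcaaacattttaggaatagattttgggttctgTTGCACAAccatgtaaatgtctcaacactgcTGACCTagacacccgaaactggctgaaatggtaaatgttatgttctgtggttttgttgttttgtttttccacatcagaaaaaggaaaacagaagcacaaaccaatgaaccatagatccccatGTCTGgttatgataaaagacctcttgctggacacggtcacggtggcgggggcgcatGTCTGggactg
Apoe promoter: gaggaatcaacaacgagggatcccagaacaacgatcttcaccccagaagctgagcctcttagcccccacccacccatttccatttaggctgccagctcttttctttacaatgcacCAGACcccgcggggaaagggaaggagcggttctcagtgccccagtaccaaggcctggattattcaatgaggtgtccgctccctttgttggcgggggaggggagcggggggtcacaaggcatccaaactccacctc

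The element between Apoc2 and Clptm1 held 2 matches to AGGAAG and 1 to CAGAC. Among windows of 216 bp at the centres of 15396 WT SALL1 peaks, 56.4% held AGGAAG and 40.5% held CAGAC. The element upstream of Apoe held 1 match to TGANTCA, a sequence present in 8.68% of SALL1 peak centres of 240 bp, and none to AGGAAG, which was present in 57.8%. Neither held AGGTCA or TTGCNNAA. The A/T-rich core AATA, a sequence of the kind bound by SALL-family zinc fingers and not marked above because it is so short, occurred once in the first element and was not found in the one upstream of Apoe, against 78.6% and 81.1% of SALL1 peak centres of the same lengths. The element between Apoc4 and Apoc1 held 3 matches to CAGAC, 1 to TTGCNNAA and 1 to AGGTCA, which were present in 75.9%, 15.7% and 15.1% of the 2333 peaks of its list. The Apoe promoter held 1 match to CAGAC, against 42.2% of the 32851 RefSeq promoters over the same 250 bases, and none to AGGAAG, against 29.5%. These matches describe the letters of the windows and do not show that a factor binds them.

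In sorted WT microglia the Apoe cluster carried little H3K27ac, and in EKO microglia it was acetylated from the Apoe promoter to the 3′ side of Apoc2. Levels are normalized tags, the number of ChIP fragments within about 1 kb around each window's centre after scaling every library to the same total. Over the 18 windows, the levels ran from 0 to 34.1 with a median of 6.37 in WT replicate 1 and from 1 to 21.9 with a median of 3.49 in WT replicate 2. They ran from 27.1 to 426 with a median of 95.3 in EKO replicate 1 and from 5.23 to 118 with a median of 35.1 in EKO replicate 2. In 16 of the 18 windows both EKO libraries lay above both WT libraries, whereas this held for 21.3% of all 133129 windows. EKO replicate 1 was higher than EKO replicate 2 in every one of the 18, and it was also higher over the 55285 windows tested below. Its median log2 level over those windows was 6.41, against 4.95 in EKO replicate 2 and 5.57 and 5.20 in WT replicates 1 and 2. For this reason libraries were quantile-normalized before testing, which set the medians over the tested windows to between 5.53 and 5.54. In bulk samples, acetylation in fewer cells and less acetylation per cell cannot be told apart. In the same libraries 5 of 8 markers of border-associated macrophages, another macrophage of the brain, gained H3K27ac in at least 1 window, with levels, summed over the window nearest to each start site, of 106 and 79.6 tags in WT and 508 and 212 in EKO, and their part in the gain was not tested.

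The window nearest to the Apoe start site, chr7:19698653-19699653, held 1.23 and 4.98 normalized tags in the WT libraries and 118 and 45.5 in the EKO libraries. The lower EKO library was thus several times above the higher WT library. After quantile normalization the log2 levels were 1.61 and 3.10 in WT and 6.0 and 6.19 in EKO, an increase of 3.74 ± 0.51 (SE) on the log2 scale or 13.4-fold, with an adjusted p of 1.9e-05 from limma over 55285 tested windows (n = 2 per genotype). The window passed the filter of 16 normalized tags only through the EKO libraries. With no filter the change was 3.99 (limma, adjusted p = 0.0038). With the libraries scaled by depth alone the change was 4.35, with an adjusted p of 0.0059. When any 1 of the 4 libraries was left out it lay between 2.85 and 4.40, and the adjusted p (limma) rose to 0.088 without WT replicate 1, 0.086 without EKO replicate 1 and 0.070 without EKO replicate 2.

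**Figure D1:**
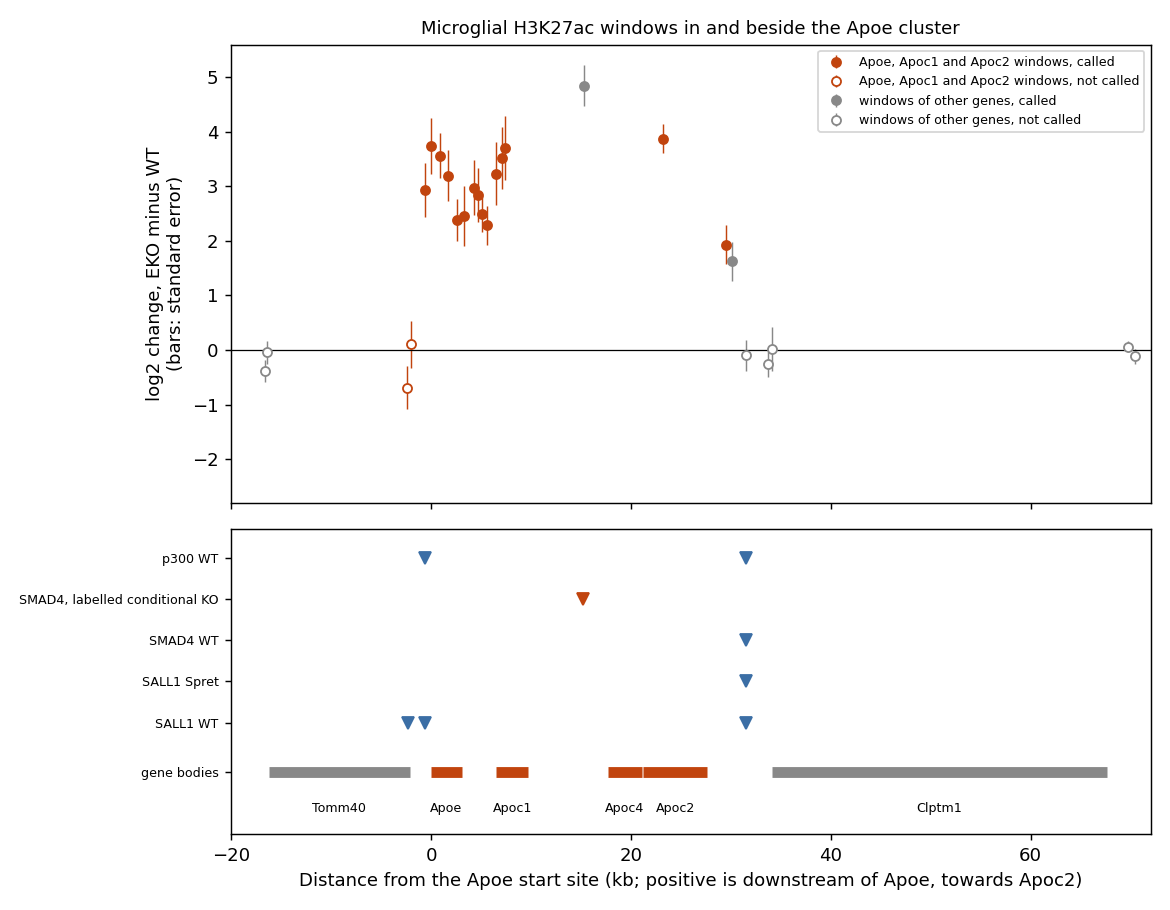
The upper panel plots the log2 change in H3K27ac (EKO minus WT, quantile-normalized, bars are standard errors, 2 libraries per genotype) of the tested windows in and next to the cluster against the distance of its centre from the Apoe start site in kb, and the lower panel places factor peaks (triangles) and gene bodies on the same axis; the Nectin2 loss and other windows farther away lie beyond the axis. Filled orange windows, which gained H3K27ac, lie between 1.93 and 3.87, the Gm44805 window (grey, filled) reaches 4.84, a Clptm1 window at 30.1 kb (grey, filled) lies at 1.62, and the Tomm40 windows and the other Clptm1 windows, all open, lie near 0.

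All 8 Apoe windows were tested and 6 of them gained H3K27ac. The next window was centred 912 bp downstream of the Apoe start site, or 122 bp inside the gene as the table counts it from another start. It held 3.28 and 3.98 tags in WT and 158 and 42.6 in EKO, an increase of 3.56 ± 0.42 on the log2 scale. The windows centred 1731 bp, 2550 bp and 3264 bp downstream of the start site rose by 3.19 ± 0.47, 2.38 ± 0.39 and 2.45 ± 0.55. The centre of the last lies past the 3′ end of the gene.

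The Apoe window 561 bp upstream of the start, which contains the overlapping SALL1 and p300 peaks printed above as the element upstream of Apoe, held 3.69 and 2.99 tags in WT and 65.2 and 37.3 in EKO. It rose by 2.93 ± 0.50 on the log2 scale (limma, adjusted p = 0.00022). With no filter the rise was 3.27 (limma, adjusted p = 0.0046). Further upstream no gain was called. The windows 2025 bp and 2443 bp before the start, which share the WT SALL1 peak at chr7:19701340-19701568 in an exon of the neighbouring gene Tomm40, were not called. The nearer of them held 21.4 and 12.9 tags in WT and 34.1 and 17.2 in EKO, a difference of 0.10 ± 0.43. The farther held 34.1 and 21.9 tags in WT and 45.2 and 10.4 in EKO, a difference of -0.69 ± 0.40 (limma, adjusted p = 0.23). As deposited, the tags of the groups overlapped in both windows. After quantile normalization the farther did not overlap, with log2 levels of 5.13 and 4.83 in WT and 4.64 and 3.94 in EKO. The windows 2025 bp and 2443 bp before the start were the only member windows whose WT mean exceeded the filter of 16 normalized tags.

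All 7 Apoc1 windows gained H3K27ac. Apoc1 encodes an inhibitor of receptor-mediated lipoprotein uptake. The window at its start site, chr7:19692180-19693180, held 4.93 and 1.00 tags in WT and 91.3 and 26.1 in EKO. The rise was 3.23 ± 0.58 on the log2 scale (limma, adjusted p = 0.00035). With no filter it was 3.47 (limma, adjusted p = 0.0079). With depth scaling as deposited it was 3.86, and the adjusted p of 0.055 missed the threshold. The windows 552 bp and 869 bp into Apoc1 rose by 3.52 ± 0.57 and 3.70 ± 0.58. The 4 windows between 953 bp and 2242 bp upstream, in the space between Apoc1 and the end of Apoe, rose by 2.28 ± 0.35, 2.49 ± 0.33, 2.84 ± 0.50 and 2.97 ± 0.50 with increasing distance from the start. No WT library exceeded 12.3 tags in any Apoc1 window, and no EKO library fell below 26.1.

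Apoc2 held the highest level of the member windows. Its intronic window at chr7:19675503-19676503, 1938 bp into the gene, held 9.03 and 11.9 tags in WT and 426 and 118 in EKO. It rose by 3.87 ± 0.27 on the log2 scale or 14.6-fold (limma, adjusted p = 4.8e-09). With no filter it rose by 3.98 (limma, adjusted p = 0.00026). The window at chr7:19669145-19670145 lies beyond the 3′ end of the gene, 4275 bp from another start that the table counts from. It held 10.3 and 11.9 tags in WT and 89.3 and 41.1 in EKO, a rise of 1.93 ± 0.36. The window nearest to the Apoc2 start as the table places it, 595 bp away and over an exon, held 0 and 1.00 tags in WT and 27.1 and 5.23 in EKO, and its mean was too low to be tested.

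The space between Apoc4 and Apoc1 held the largest change in the cluster. A window at chr7:19683369-19684369, which the table assigns to the predicted gene Gm44805 and which is therefore not a member, held 2.05 and 4.98 tags in WT and 331 and 101 in EKO. It rose by 4.84 ± 0.37 on the log2 scale or 28.6-fold (limma, adjusted p = 1.4e-08). It passed the filter on low levels through the EKO libraries, and with no filter it rose by 5.17 (limma, adjusted p = 0.0005). In the table this window derives from an open-chromatin peak found in EKO and not in WT microglia. It contains the peak of the SMAD4 list labelled conditional KO, chr7:19683781-19684197, which starts 2302 bp upstream of the Apoc4 start site. The gain was called in the fits without WT replicate 2 (adjusted p = 0.013) and without EKO replicate 2 (adjusted p = 0.031), whereas the adjusted p was 0.084 without WT replicate 1 and 0.062 without EKO replicate 1 (limma in each case).

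**Figure D2:**
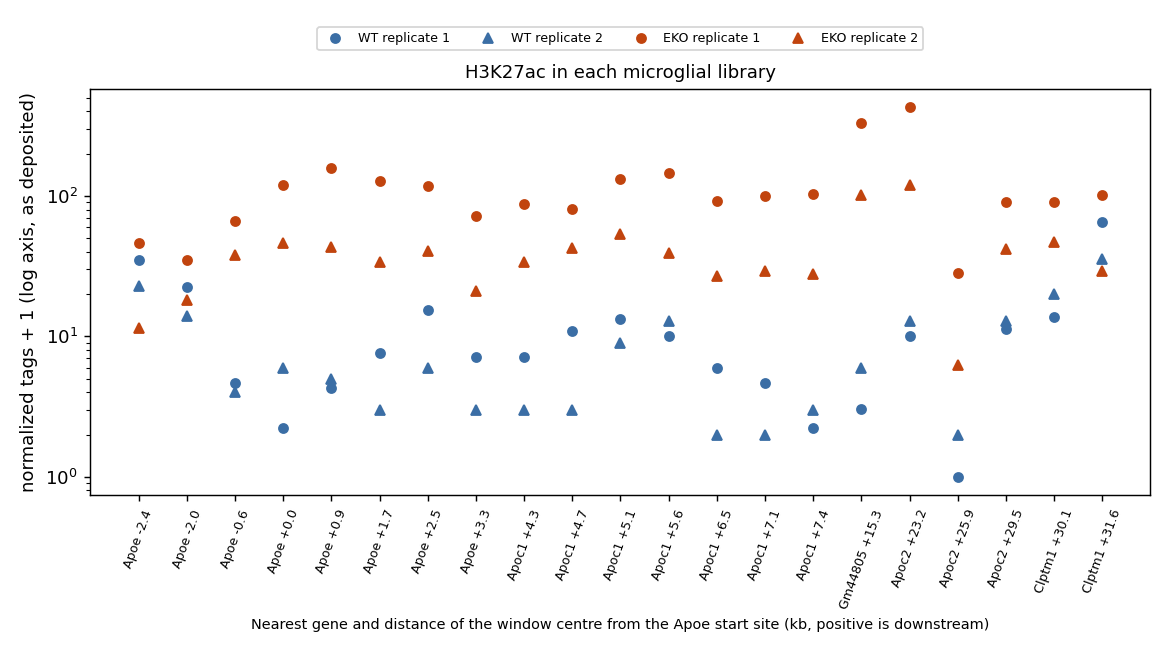
Normalized tags + 1 (log axis, as deposited) of each of the 4 microglial libraries in the 18 member windows and 3 further windows of the cluster, in order from upstream of Apoe to beyond Apoc2. Blue WT symbols lie below both orange EKO symbols from the Apoe window at -0.6 kb to the Clptm1 window at 30.1 kb, and the groups overlap in the outer windows at -2.4, -2.0 and 31.6 kb.

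Across the members, 15 of 17 tested windows gained H3K27ac and 0 lost it (0 also at an unadjusted p under 0.05, and with edgeR and DESeq2) at an adjusted p below 0.05 and a change above 2-fold, where 8.68% of all 55285 tested windows gained and 7.56% lost it. The called changes ran from 1.93 to 3.87 with a median of 2.97. The median over the 17 tested member windows was 2.93, against -0.03 over all tested windows. Each of the 15 called windows passed the filter on low levels through the EKO libraries, so a fit with no filter bears more directly on all members. In it, 15 of the 18 gained, against 2.89% of 133129 windows. The windows not called in it were the 2 upstream Apoe windows and the low Apoc2 window. With depth scaling as deposited, 6 member windows gained, against 0.814% of tested windows. With edgeR and with DESeq2 on recovered whole tags, 15 gained. Without WT replicate 1 or without EKO replicate 1 the limma fit called 0 windows anywhere in the genome (12200 and 15105 had an unadjusted p under 0.05), and in either fit 15 of the 17 member windows were higher in EKO at an unadjusted p under 0.05, with 0 lower without WT replicate 1 and 1 lower without EKO replicate 1. Without WT replicate 2 the count was 10, and without EKO replicate 2 it was 5. As 15 of the 18 windows overlap another member window, they share fragments and are not independent measurements.

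The windows were built on open-chromatin peaks, and the origin of each peak is recorded. Of the 18 member windows, 9 came from a peak found in EKO microglia alone, 9 from a peak found in both genotypes and 0 from a WT peak alone. Over all windows, 8.75% came from an EKO peak alone and 21.8% from a WT peak alone. All 7 Apoc1 windows except the one 953 bp upstream were EKO peaks, whereas the Apoe start, the element upstream of Apoe and the Apoc2 intron were open in both.

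No gain was called in the 13 tested windows within 100 kb on either side of the cluster, which are too few to show where the gain ends. In that range 34 windows outside the cluster were assigned to 9 other genes, and 13 of these windows were tested. With limma 0 gained, where 8.68% of all tested windows did, 0 were higher and 3 lower in EKO at an unadjusted p under 0.05, and edgeR and DESeq2 each called 0 gains. All 3 tools called 1 loss, and in the limma fit it was an intronic Nectin2 window that held 53.0 and 21.9 tags in WT and 17.1 and 8.21 in EKO, a change of -1.95 ± 0.47. The start site of Tomm40, the mitochondrial import gene next to Apoe, held 104 and 89.6 tags in WT and 203 and 61.2 in EKO, a difference of -0.04 ± 0.21. The start site of Clptm1, on the Apoc2 side, differed by 0.02 ± 0.40. That of Relb, an NF-kappaB subunit, held 662 and 493 tags in WT and 1289 and 431 in EKO and differed by 0.06 ± 0.10. Of the 3 further windows inside the cluster, a Clptm1 window at chr7:19668577-19669577 next to Apoc2 rose by 1.62 ± 0.35 (limma, adjusted p = 0.0020, or 1.64 and 0.031 with no filter), besides the Gm44805 window described above. The third was the element between Apoc2 and Clptm1.

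That element held the SALL1 peak with the highest score of the cluster, and its difference in H3K27ac did not pass the test. Its window held 64.0 and 34.8 tags in WT and 100 and 28.4 in EKO, a difference of -0.10 ± 0.28 (limma, adjusted p = 0.83). The WT SALL1 peak there had an enrichment score of 115, rank 2099 of 15410 peaks. The same site was in the WT SMAD4 list with a score of 38 (rank 2309 of 4024), in the WT p300 list with 91 (rank 3215 of 9177) and in the Spret SALL1 list with 22 (rank 827 of 2245). It was the single cluster peak in Spret, and the PWK list of 3627 peaks held 0. The other WT SALL1 peaks of the cluster were weaker, with scores of 43 for the Tomm40 exon and 31 for the element upstream of Apoe, below the list median of 46. The p300 peak at the element upstream of Apoe had a score of 38. The EKO SALL1 list held 7 peaks in all and 0 in the cluster.

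The peak between Apoc4 and Apoc1 in the SMAD4 list labelled conditional KO had a score of 135, rank 248 of 2333, above the list median of 55. It was absent from the WT SMAD4 list, while the WT SMAD4 peak between Apoc2 and Clptm1 was absent from the list labelled conditional KO. Each list is a single reproducible set made from its replicates, so these are descriptions with no measure of spread, and a missing peak may lie below the reproducibility threshold. The deposited WT SMAD4 and SALL1 lists are also shorter than the peak sets described in the study's text, so that absence here refers to these lists alone.

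In sorted nuclei, called H3K27ac regions over the cluster were widest in PU1+ nuclei of EKO mice. PU.1 is the myeloid factor used to sort microglial nuclei, OLIG2 marks the oligodendrocyte lineage and NeuN marks neurons. The labels were checked against marker promoters: 7 or 8 of 8 microglial promoters lay within 1000 bp of a called region in each PU1 library, and 4 or 5 of 6 neuronal promoters in each NeuN library. In the NeuN libraries 3 of 7 astrocyte promoters and 0 or 2 of 8 microglial promoters did so too. In the PU1 libraries this held for 0 of 6 neuronal, 0 to 2 of 8 oligodendrocyte-lineage and 0 or 1 of 7 astrocyte promoters. Of the 37610 bp, regions covered 1563 bp in PU1 WT replicate 1 and 7656 bp in PU1 WT replicate 2, and 34959 bp and 34050 bp in the PU1 EKO libraries. In each EKO library a single region ran from 3.1 or 3.3 kb upstream of Apoe to inside Apoc2, with a length of 29.6 and 29.8 kb and 5304.7 and 4262.6 normalized tags. It covered 100% of the Apoe, Apoc1 and Apoc4 bodies, and 87.5% and 82.4% of Apoc2 lay in called regions. In PU1 WT replicate 2 short regions of 1601 bp at the Apoe start, 1053 bp upstream of Apoc1 and 666 bp between Apoc4 and Apoc1 held 50.8, 30.0 and 39.2 tags. PU1 WT replicate 1 had no region between Apoe and Apoc2, but only 11149 regions were called in this library genome-wide, whereas 25990, 26029 and 36057 were called in the remaining PU1+ nuclei.

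The PU1 EKO libraries lay above both PU1 WT libraries by 29895 bp on average, or by 26848 bp without PU1 WT replicate 1, a comparison in which the smallest p that an exact permutation test of 2 against 2 allows is 0.333. Coverage depends on how the caller joins neighbouring regions, but the summed normalized tags of the regions also separated the genotypes, with 96.6 and 748.3 in WT and 6356.5 and 5086.6 in EKO. Promoters of border-associated macrophage markers lay at called regions for 0 and 6 of 8 genes in the PU1 WT libraries and for 7 and 5 in the EKO libraries, and their part in the difference was not tested. The flanking region between Apoc2 and Clptm1 was called in all 4 PU1 libraries, at 96.6 and 599.1 tags in WT and 1051.8 and 824.0 in EKO.

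**Figure D3:**
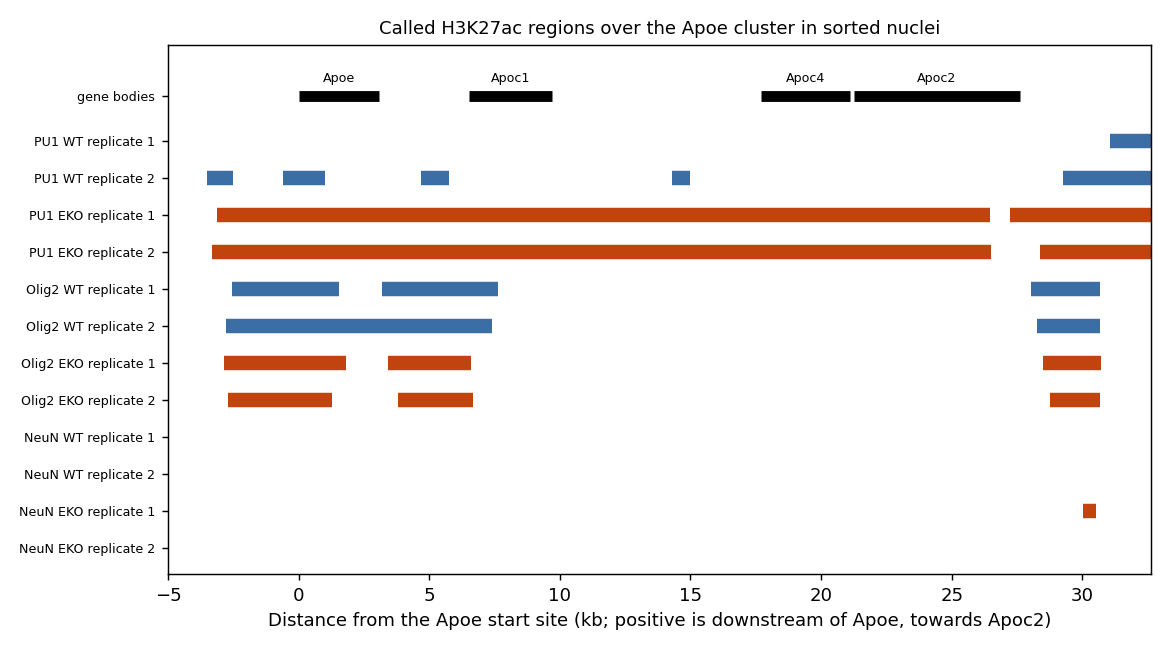
Called H3K27ac regions (bars) in each of the 12 libraries of sorted nuclei, against the distance from the Apoe start site in kb, cut at the ends of the cluster. Both PU1 EKO libraries are covered almost end to end, the 4 Olig2 libraries share a pattern around Apoe, upstream of Apoc1 and beyond Apoc2, and NeuN libraries are empty except for 1 short region.

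Olig2+ nuclei carried H3K27ac over Apoe and upstream of Apoc1 in both genotypes. Covered bases were 11183 and 12567 in WT and 10084 and 8778 in EKO. The regions around the Apoe start held 179.5 tags in WT replicate 1 and 288.3 and 284.6 in the EKO libraries, and in WT replicate 2 a single region of 752.3 tags joined Apoe to Apoc1. No Olig2 library had a called region over Apoc4 or Apoc2, but all 4 had one of 147.1 to 196.8 tags beyond the 3′ end of Apoc2. In these libraries 7 of 8 oligodendrocyte-lineage marker promoters, 3 or 4 of 7 astrocyte promoters and 0 of 6 neuronal promoters lay within 1000 bp of a called region. Both EKO libraries lay below both WT libraries in covered bases, with a mean difference of 2444 bp (exact permutation p = 0.333), whereas the summed tags were higher in EKO by 13.3 on average and overlapped, at 513.4 and 932.6 in WT and 775.9 and 696.8 in EKO.

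NeuN+ nuclei had no called region over the 4 gene bodies. The single NeuN region in the cluster, 501 bp and 13.1 tags, was in EKO replicate 1 and lay beyond Apoc2. Over both genotypes, mean covered bases were 19557 in PU1+ nuclei (SD 17442, n = 4), 10653 in Olig2+ nuclei (SD 1611, n = 4) and 125 in NeuN+ nuclei (SD 250, n = 4). PU1+ and Olig2+ nuclei each lay above NeuN+ nuclei in every library (2-sided exact permutation test, p = 0.0286, adjusted p = 0.0429 over 3 pairs). With the genotypes pooled, PU1+ and Olig2+ nuclei overlapped (exact permutation test, adjusted p = 0.429). Within a genotype they did not: both PU1 WT libraries lay below both Olig2 WT libraries, and both PU1 EKO libraries lay above both Olig2 EKO libraries, in sets of 2 against 2 for which the exact permutation p cannot go below 0.333. Both calls against NeuN+ nuclei were lost when the flanks were set to 0 or 20 kb (exact permutation tests, adjusted p from 0.0857 to 0.214). Without PU1 WT replicate 1 that of PU1+ nuclei was lost (exact permutation test, adjusted p = 0.0857).

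The genes whose start-site windows most resembled that of Apoe over the 4 microglial libraries were Adam19, Serpinb8, Fgf2, Ndst1 and Cp, with root mean square differences of 0.26, 0.40, 0.45, 0.47 and 0.48 on the quantile-normalized log2 scale among 19372 start-site windows. Cp encodes ceruloplasmin, a copper-binding ferroxidase, and its window differed by 3.52. Likeness was computed over only 4 libraries and describes levels.

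Among other lipoprotein genes windows were called in both directions, as they were over all windows. Of 35 genes listed in 4 groups, 28 had windows and 21 had tested windows, 186 in all, of which 22 gained and 10 lost H3K27ac. The group medians were -3.93, 0.19, 0.39 and -0.14 for other apolipoproteins, lipoprotein receptors, genes of lipid loading, lipolysis and efflux, and regulators. For comparison, 8.68% of all tested windows gained and 7.56% lost it. Abca1 alone held 15 of the 22 gains. With depth scaling as deposited 1 of these windows gained and 0 lost, and with a library left out 0 to 9 gained and 0 to 5 lost (20 to 28 and 6 to 11 with edgeR, DESeq2, median scaling, other pseudocounts, no filter and the replicate block).

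The other apolipoproteins gave 2 tested windows of 29, both at Apob, which encodes the structural protein of LDL. Both lost H3K27ac, and the larger change was from 49.7 and 37.8 tags in WT to 3.01 and 2.24 in EKO, -4.14 ± 0.63 on the log2 scale (limma, adjusted p = 6.3e-05). No window of Clu, which encodes the brain apolipoprotein clusterin, was high enough to test, and Apod had no window. Of 41 tested windows of lipoprotein receptors 3 gained and 0 lost with limma, and 10 were higher and 3 lower at an unadjusted p under 0.05. Over all tested windows 8.68% gained and 7.56% lost H3K27ac. With edgeR 5 receptor windows gained, and with both edgeR and DESeq2 0 lost. The largest gain was at Sorl1, a sorting receptor for lipoproteins, where a window 17484 bp before the start rose by 1.69 ± 0.32 (limma, adjusted p = 0.00051). The Trem2 start, which belongs to a microglial lipid receptor, held 81.7 and 58.7 tags in WT and 131 and 49.3 in EKO, a difference of -0.04 ± 0.23.

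Abca1, the transporter that loads cholesterol onto apolipoproteins, gained H3K27ac in 15 of 36 tested windows. The largest gain lay 3681 bp into the gene, from 59.5 and 48.8 tags in WT to 690 and 208 in EKO, or 2.52 ± 0.18 (limma, adjusted p = 4.8e-09). Its start site, at 267 and 195 tags in WT and 516 and 161 in EKO, differed by 0.09 ± 0.14. Abcg1, a related cholesterol transporter, lost H3K27ac in 5 of 17 tested windows, with the largest change of -1.81 ± 0.60 (limma, adjusted p = 0.032). Lpl, which encodes lipoprotein lipase, gained in 2 of 4. Among regulators, Rxra, the partner of LXR in its heterodimer, rose by 3.08 ± 0.30 in a window 3774 bp into the gene, from 13.1 and 7.96 tags in WT to 234 and 70.2 in EKO. The largest loss in that group was at Rxrb (-1.29 ± 0.39). The start of Nr1h2, which encodes LXR-beta, differed by -0.12 ± 0.11.

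**Figure D4:**
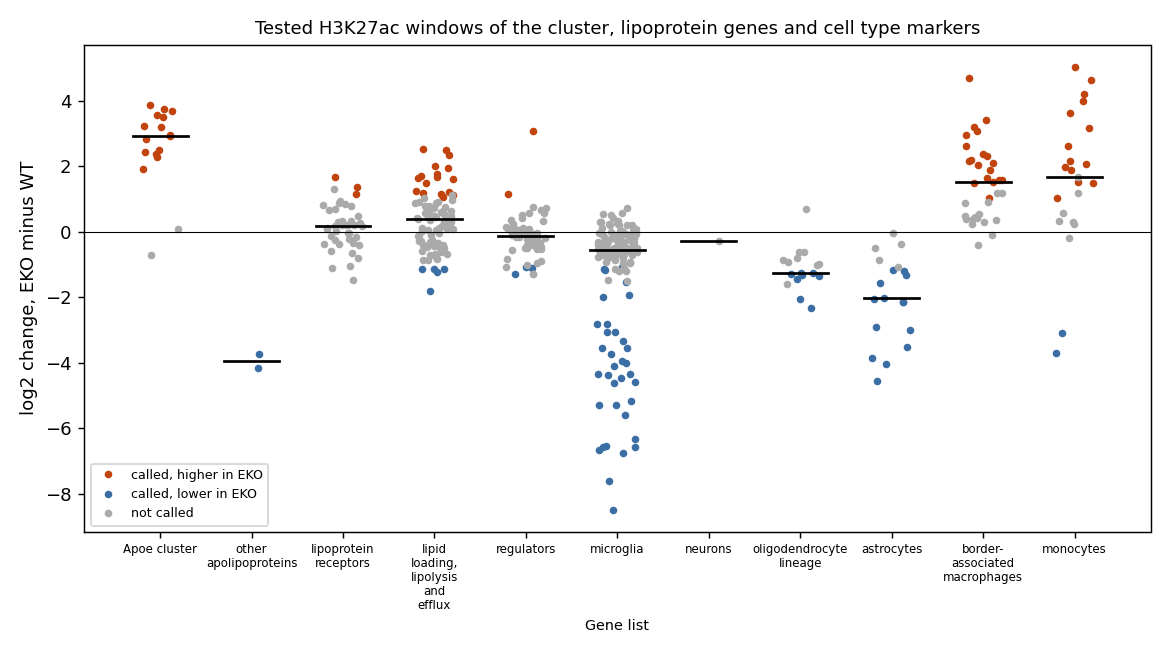
Log2 change (EKO minus WT, quantile-normalized) of every tested window of the Apoe cluster, of 4 lipoprotein gene lists and of 6 cell type marker lists, each point a window and each bar the median of its list. The cluster's median is 2.93, the border-associated macrophage and monocyte lists lie at 1.52 and 1.69, and the microglial list, which includes Sall1, lies at -0.54.

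Marker lists show which other signals moved with the cluster in the same libraries. Sall1 itself lost H3K27ac in 29 of 29 tested windows. These include distal windows, and any that lie in the deleted super-enhancer cannot hold tags in EKO whatever the acetylation. Which of them lie there was not determined. The Sall1 start site held 241 and 108 tags in WT and 0 and 2.24 in EKO. All 8 microglial markers had tested windows, and 35 of 151 lost H3K27ac, the 29 of Sall1 among them. Border-associated macrophages, the resident macrophages of the meninges and vessels, also carry CD11b and CX3CR1 but mostly more CD45 than microglia, as do monocytes. How many of them remained in the sorted cells was not measured here. Of their 8 markers 5 gained H3K27ac in at least 1 window, in 19 of 34 tested windows, and their summed levels are given above. Mrc1 gained in 9 of 14 windows, Ms4a7 in 6 of 6 and Pf4 in 2 of 2, whereas the tested windows of Lyve1, Cd163 and Folr2 had median changes of 0.24, 0.80 and 0.37, and 0 of these windows were called by limma or had an unadjusted p under 0.05. With edgeR 1 of them gained. Monocyte markers gained in 14 of 23 windows, 13 of them at Itga4 and 1 at Ccr2, where a window far upstream of its start rose by 2.08 on the log2 scale. They lost in 2, both at Plac8, by -3.71 and -3.10. The window nearest to the start of the defining marker Ly6c2 had 3.69 and 0 tags in WT and 3.01 and 0.75 in EKO. It was centred at -6967 bp from that start. The window nearest to the Ccr2 start, centred 1267 bp from it, had 10.7 and 9.95 in WT and 18.1 and 10.4 in EKO. Neither window reaches the start, so they do not give start-site levels. Of the neuronal, oligodendrocyte-lineage and astrocyte lists, 1, 17 and 19 windows were tested with limma, and 0, 8 and 14 lost H3K27ac. The tested astrocyte windows all belonged to Slc1a3, a glutamate transporter. The other 5 markers with windows were Aqp4, Gfap, Aldh1l1, Slc1a2 and Gja1, and their nearest windows held at most 10.7 tags in any library. Those of Aldh1l1, Slc1a2 and Gja1 covered the start site and held at most 6.02. Those of Aqp4 and Gfap were centred at -55310 bp and -3818 bp from the start and do not give start-site levels. The part of these cell types in the gain over the Apoe cluster was not tested.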

How the data were processed

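H3K27ac, SALL1, SMAD4 and p300 ChIP-seq of mouse brain was analysed from processed files. Per the labels and methods the authors aligned reads to mm10 with Bowtie2 and made tag directories, regions and peaks with HOMER. The microglial table holds normalized tags, a deposited signal that the authors counted around merged open-chromatin peaks and scaled to a fixed library total. The nuclei files give, per called region and library, a normalized tag signal and a fold over input ratio as deposited by the authors, and the peak lists give an enrichment score of the reproducible (IDR) peaks of a group, also deposited. The 30 input samples were not used here.

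Tags in the table were whole multiples of a step in 100% of values within 0.05 tags in each of the 4 libraries, which gives library depths between 9963454 and 24357795 tags. The step of 2 libraries is so near 1 that this is less certain for them. Windows with a mean above 16 normalized tags (55285) were quantile-normalized as log2(normalized tags + 1) and tested with limma 3.58.1 (mean-variance trend, all windows, Benjamini-Hochberg adjustment). A call needed an adjusted p below 0.05 and a change above 2-fold. Fold changes on this scale understate the change of low windows. The methods of the study rescale inside DESeq2; edgeR 4.0.16 and DESeq2 1.42.0 on the recovered tags were alternatives, beside other scaling, pseudocounts, filters, a replicate block and leaving out libraries. The fit was tested on simulated data. Replicates differed beyond sampling noise (chi-square per degree of freedom 2.99 in WT and 3.02 in EKO).

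Named windows are those nearest each member's start, called, or overlapping a factor peak, with pathway genes named by the largest called change in each direction. Members and lists were chosen with earlier results of these data known. Bases covered by called regions were compared with exact permutation tests (scipy 1.17.1). Intervals of counting error are not given, since depth behind single scores is not given in the sources used here.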

Additional observations from a re-analysis of the deposited data

Results flagged for a closer look

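Covered bases in NeuN+ nuclei were 0 in both WT libraries and in EKO replicate 2 and 501 in EKO replicate 1, so that this library stood apart from the other 3. With the other 3 libraries at 0, any called region would have set the fourth apart, and the region behind it is short, with 13.1 normalized tags.

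The EKO libraries covered more of the cluster than WT in PU1+ nuclei and less in Olig2+ nuclei, in both libraries of each. The difference between these changes was 32339 bp (exact permutation of genotypes within each cell type, 36 arrangements, p = 0.0556, the smallest this design gives, adjusted p = 0.167 over 3 pairs of cell types). In Olig2+ nuclei the direction turned with the measure, as given below.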

How the results depend on the processing

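The 15 gained member windows numbered 15 as well under median scaling, edgeR, DESeq2, pseudocounts of 0.5 and 5, no filter and the replicate block, and 12 with a minimum mean of 32 tags, where 12 were tested. Depth scaling as deposited gave 6, and leaving out 1 library gave 0 to 10. The Apoe start-site change was called in each alternative except without WT replicate 1, EKO replicate 1 or EKO replicate 2 (range over the 4 libraries left out 2.85 to 4.40). For the single member windows other than the Apoe start, 51 of 203 alternative values lost the call and 0 reversed. All 51 were under depth scaling or with a library left out. The 203 include values of the Apoe windows 2025 bp and 2443 bp before the start, which had no call to lose. Lipoprotein windows (22 gained, 10 lost) gave 1 and 0 with depth scaling as deposited, 6 lost with DESeq2, and 0 to 9 gained and 0 to 5 lost with a library left out. Fits with 3 libraries assume that the lone library of a genotype varies like the other group, and 2 of them called nothing in the genome. Over all windows depth scaling called 450 gained and 71 lost against 4800 and 4177, moving the share of gains among calls from 53.5% to 86.4%, and the median change from -0.03 to 0.28. It was 4290 and 2837 with DESeq2, 5851 and 3878 with edgeR, 3842 and 2911 with no filter and 2944 and 2521 at 32 tags. Replicate numbers do not pair the libraries by any label (correlation of deviations 0.04), and the replicate block gave 4958 and 4484 calls, with 15 member windows. The causes of these changes were not tested.

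In nuclei, PU1 minus NeuN coverage was 7781 with no flank, 17792 with 20 kb flanks and 25430 without PU1 WT replicate 1 (adjusted p 0.214, 0.214 and 0.0857, exact permutation), and Olig2 minus NeuN was 2484, 9294 and 10528 (0.0857 in each). Without PU1 WT replicate 1 the Olig2 and NeuN libraries are the same, and that adjusted p moved only through the adjustment over 3 pairs. With 3 PU1 libraries against 4 the adjusted p of PU1 against NeuN cannot pass the threshold. EKO minus WT coverage in PU1+ nuclei was 14566 with no flank. In Olig2+ nuclei summed tags gave 13.3 and reversed the sign. In NeuN+ nuclei it was 0 with no flank, 1114 with 20 kb flanks, and between 0 and 501 with a library left out. With no flank 0 peaks of any list remained, and the peaks at or above each list's median score included 1 WT SALL1, 1 p300 and 0 WT SMAD4 peaks. At these library depths most WT windows of the cluster rest on few tags.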
